A study of Mus musculus with 8 samples.

Results

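The molecular chaperones of the HSP, DNAJ and CCT families were followed in single mouse embryos labelled as Control or as triple knockouts of the TET enzymes. Members were all gene symbols that begin with Hspa, Hspb, Hspd, Hspe or Hsph and a number, with Hsp90, with Dnaja, Dnajb or Dnajc and a number, or with Cct and a number from 2 to 8, together with Tcp1. This gave 82 of the 21182 symbols in the deposited table. By class they are 11 HSP70, 3 HSP110, 3 HSP90, 2 HSP60/HSP10, 8 small HSP, 4 DNAJA, 13 DNAJB, 28 DNAJC and 10 CCT genes.

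RNA was sequenced from 8 whole C57BL/6 embryos at E6.75, around the start of gastrulation. The 4 Control embryos carry no further genotype label than Control (their columns are named 123WT), and the 4 Tet1/2/3 TKO embryos are labelled as triple knockouts of the methylcytosine dioxygenases Tet1, Tet2 and Tet3. All 8 share the strain, age and tissue label, and each library comes from 1 embryo. None of the alleles, a driver, litter, sex or collection date is given in the sources used here. The question behind the comparison is which expression at this stage requires TET activity.

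Chaperones bind proteins that are not yet folded or have come unfolded, and most release them in cycles of ATP binding and hydrolysis. HSP70 proteins work with J-domain proteins (DNAJA, DNAJB and DNAJC), which bring clients and stimulate the ATPase, and with exchange factors such as the HSP110 proteins. HSP90 acts later on kinases, receptors and other signalling clients, the CCT ring encloses actin, tubulin and other clients, and HSP60 with its lid HSP10 folds proteins of the mitochondrial matrix. Small HSPs hold unfolded proteins without ATP. Rapidly dividing embryonic cells are known to hold large amounts of the constitutive forms.

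Values are RPKM, which are reads per 1000000 and per kilobase of the gene. They adjust for depth and gene length but not for other shifts between embryos, so results are also given after median-ratio scaling. Levels of genes that share sequence with other genes depend on how such reads were counted. Differences are TKO-labelled minus Control on the log2(RPKM + 1) scale. Tet1 averaged 5.24 ± 0.37 RPKM in Control and 11.4 ± 2.82 RPKM in the TKO-labelled embryos (SD, n = 4 each), with no overlap. Tet2 averaged 0.725 and 0.784 RPKM, and Tet3 1.85 and 1.38 RPKM. Tet1 was therefore higher where its loss is labelled, and 1 value per gene does not tell if an exon is missing, so the embryos are called TKO-labelled and each direction rests on the label. Estimated depth ran from 9.89 to 18.96 M reads per embryo (M for 1000000), and each embryo had 1 to 7 members listed at 0. A list of 8 epiblast markers summed to 456 to 650.3 RPKM in Control and 493 to 913 RPKM in the TKO-labelled embryos, and 7 extraembryonic ectoderm markers to 137 to 224 and 167 to 185 RPKM, so RNA of both tissues is present in each library.

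Of the 82 members, 62 reached 1 RPKM in at least 4 embryos and were tested. The other 20 were not tested. They are Hspa1a, Hspa1l, Hspa12a and Hspa12b of HSP70, Hspb2, Hspb3, Hspb6, Hspb7 and Hspb9 of the small HSPs, Dnaja4, Dnajb5, Dnajb7, Dnajb8 and Dnajb13, Dnajc5b, Dnajc5g, Dnajc6 and Dnajc28, and Cct6b and Cct8l1. Dnaja4 reached 4.26 RPKM in 1 embryo and no other of these exceeded 1.25 RPKM in any. Together the 82 members made up 2.19% to 2.53% of the summed RPKM in Control and 2.44% to 2.77% in the TKO-labelled embryos.

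No chaperone passed an adjusted p of 0.05 (limma with Benjamini-Hochberg adjustment over 10451 genes), against 0.00957% of all tested genes, which is 1 gene. The lowest adjusted p of a member was 0.141, for Hspa8. At an unadjusted limma p under 0.05, 7 of the 62 tested members (11.3%) were higher in the TKO-labelled embryos, against 13.9% of all tested genes, and 0 were lower, against 3.6%. These 7 are Hspa8, Tcp1, Dnaja2, Cct3, Dnajc13, Dnajb11 and Dnajc17. After median-ratio scaling of the embryos the split was 2 higher and 2 lower, and over all tested genes it went from 1448 higher and 376 lower to 838 higher and 670 lower. Without Control replicate 3 the count of higher members was 3, and without TKO replicate 4 it was 4. In 4 members (6.45%), namely Hspa8, Tcp1, Dnaja2 and Cct3, every TKO-labelled value lay above every Control value, against 7.55% of all tested genes. In 0 members did every TKO-labelled value lie below, against 1.86%. The chaperone shares were thus near or under those of all genes. The median log2 difference was 0.11 over the tested members and 0.09 over all tested genes, with 40 members above 0 and 22 below, beside 6949 of the 10451 genes above 0.

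**Figure D1:**
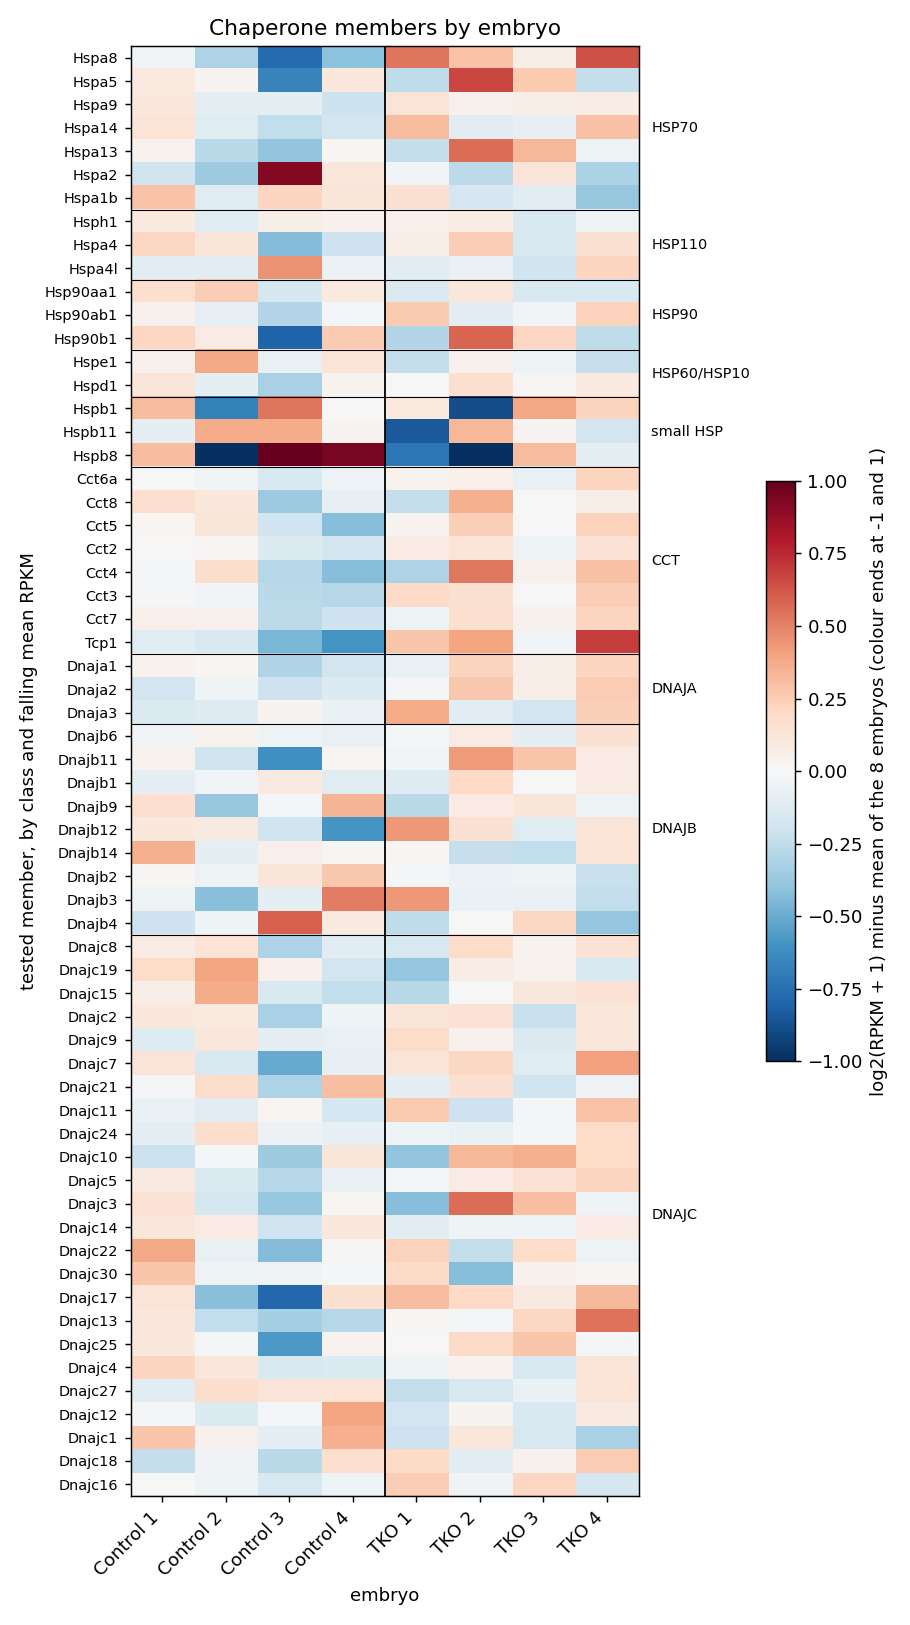
Each row is 1 of the 62 tested chaperones, grouped by class and ordered within a class by falling mean RPKM, and each column is 1 embryo. Colour gives log2(RPKM + 1) minus the mean of the 8 embryos and is saturated at -1 and 1. The Hspa8 and Tcp1 rows are redder in TKO-labelled columns, many rows are bluest in Control 3, and the Hspa5, Hsp90b1, Dnajb11 and Dnajc3 rows are reddest in TKO 2.

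HSP70 proteins bind short hydrophobic stretches and are the hub of cytosolic folding. Hspa8, the constitutive cytosolic form (HSC70), which also uncoats clathrin vesicles, was listed at 1038, 851, 621 and 794 RPKM in Control replicates 1 to 4 and at 1534, 1289, 1099 and 1646 RPKM in TKO-labelled replicates 1 to 4. Every TKO-labelled embryo lay above every Control embryo, with TKO 3 and Control 1 closest to each other. The means were 826 ± 172 and 1392 ± 245 RPKM (SD, n = 4 each), or 1.69-fold higher in the TKO-labelled group. The log2 difference was 0.76 (95% confidence interval 0.37 to 1.15), with a limma p of 0.00138 before and 0.141 after Benjamini-Hochberg adjustment, and an exact two-sided permutation p of 0.0286, the smallest that 70 assignments allow. Leaving out 1 embryo at a time kept the log2 difference between 0.63 and 0.88. The summed epiblast markers, for comparison, stood at 456, 650.3, 506 and 594 RPKM in Control and at 913, 627.5, 493 and 711 RPKM in the TKO-labelled embryos. Of the 8 markers, 3 were higher at a limma p under 0.05, against 13.9% of all genes. After median-ratio scaling 1 was, beside 838 of all tested genes. The part of epiblast in the Hspa8 values was not tested. In libraries of whole embryos, fewer cells of a type and less RNA per cell cannot be told apart.

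Hspa8 is a gene whose reads are hard to place. Of the 50-base words of its longest coding transcript in GENCODE M21, 73.2% also occur in transcripts of 11 other genes, nearly all of these in Gm15459. Its exons also overlap 3 small nucleolar RNA genes on the same strand, Snord14c, Snord14d and Snord14e. How the authors' counting treated such reads is not given in the sources used here, so the level of Hspa8 is uncertain and the part of shared reads in the difference was not tested. In all, 13 of the 82 members share more than 10% of their words with another gene and 48 share none.

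The other tested HSP70 genes did not part the groups. Hspa9 (mortalin), the HSP70 of mitochondria, was listed at 218, 189.7, 190.3 and 175 RPKM in Control and at 222, 209.7, 213 and 214 RPKM in the TKO-labelled embryos. Control 1 lay within the TKO-labelled range, which was narrow (log2 difference 0.15, limma adjusted p = 0.44). Hspa14, which binds ribosomes, averaged 91.2 and 106 RPKM (0.21, limma adjusted p = 0.451). Over the class, 5 of the 7 tested genes had differences above 0, the median was 0.21 (0.12 after median-ratio scaling), and Hspa8 was the 1 gene with p under 0.05. Hspa8 made up 58.8% to 63.5% of the summed RPKM of the 11 HSP70 genes in Control and 64.3% to 75.0% in the TKO-labelled embryos.

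The HSP110 proteins exchange nucleotide on HSP70. Hsph1 was nearly level over the embryos, at 123, 105, 119 and 118 RPKM in Control and 118, 120.2, 103 and 111 RPKM in the TKO-labelled embryos (a difference of -0.04 in log2, 95% confidence interval -0.26 to 0.18). Hspa4, which despite its symbol is an HSP110 protein, was lowest in Control 3 at 65.5 RPKM and lay between 76.7 and 106 RPKM in the other 7 embryos.

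**Figure D2:**
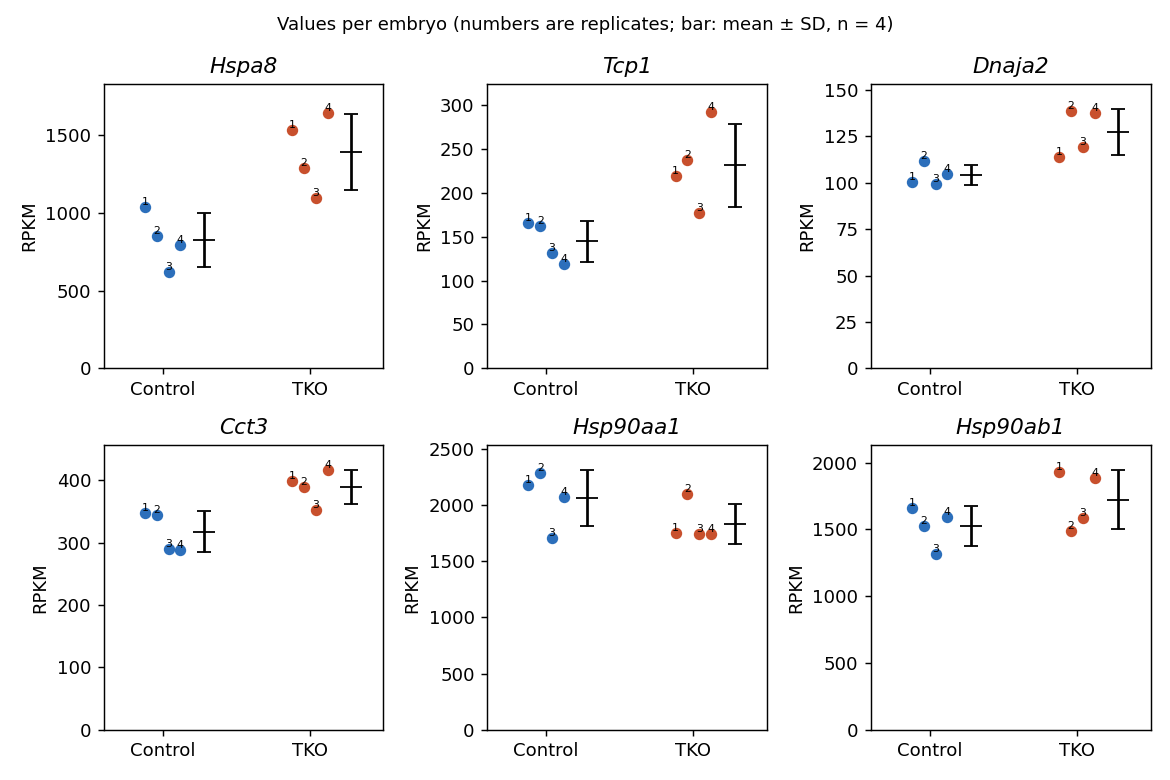
RPKM of Hspa8, Tcp1, Dnaja2, Cct3, Hsp90aa1 and Hsp90ab1 by group. Points are embryos numbered by replicate, the bar is the mean with its SD (n = 4), and each axis starts at 0. The groups are apart for the first 4 genes and overlap for both HSP90 genes, with Hsp90aa1 averaging lower and Hsp90ab1 higher in the TKO-labelled embryos.

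The cytosolic HSP90 genes had the highest levels of all members. Hsp90aa1, the inducible cytosolic form, was listed at 2177, 2289, 1711 and 2075 RPKM in Control and at 1751, 2096, 1738 and 1741 RPKM in the TKO-labelled embryos. TKO 2 stood apart from the other TKO-labelled embryos and lay among the Control values, and Control 3 lay below all TKO-labelled values. Hsp90ab1, the constitutive form, was listed at 1660.5, 1526, 1317 and 1591 RPKM in Control and at 1932, 1488, 1586 and 1887 RPKM in the TKO-labelled embryos. For this gene TKO 1 and TKO 4 were above every Control embryo while TKO 2 was below 3 of them. The log2 differences were -0.17 (95% confidence interval -0.45 to 0.11) for Hsp90aa1 and 0.17 (-0.11 to 0.46) for Hsp90ab1, with limma adjusted p of 0.512 and 0.502.

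Because the 2 forms leaned opposite ways, their proportion was also read within each embryo, as a description chosen after the values were seen. Hsp90aa1 made up 56.7%, 60.0%, 56.5% and 56.6% of cytosolic HSP90 RPKM in Control replicates 1 to 4 and 47.5%, 58.5%, 52.3% and 48.0% in TKO-labelled replicates 1 to 4. The 3 lowest shares were those of TKO 1, TKO 4 and TKO 3, and TKO 2 lay within the Control range. Their sum averaged 3586 ± 380.0 RPKM in Control and 3555 ± 159 RPKM in the TKO-labelled embryos (SD, n = 4 each). Of the words of Hsp90aa1, 58.5% also occur in other genes, against 4.49% for Hsp90ab1, so the proportion rests on how such reads were counted.

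CCT is a double ring of 8 different subunits, each with its own gene, which folds actin and tubulin among other clients. All 8 had differences above 0, beside 6949 of all 10451 tested genes. They ran from 0.09 for Cct8 to 0.67 for Tcp1, with a median of 0.22. After median-ratio scaling all 8 were still above 0, with a median of 0.13, beside 0.021 for all genes. The lowest were then Cct8 at 0.0016 and Cct6a at 0.025. Of the 8, 2 reached a limma p under 0.05, Tcp1 and Cct3, against 13.9% of all genes on the higher side. After median-ratio scaling 1 did, Tcp1, beside 838 of all tested genes higher. Cct3 then had a limma p of 0.0892. The highest embryo was TKO 4 for 5 subunits and TKO 2 for 3, and the lowest was Control 4 for 5 and Control 3 for 3. Control 1, Control 2, TKO 1 and TKO 3 were never at either end.

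Tcp1, the alpha subunit, was listed at 166, 162, 131 and 119 RPKM in Control and at 219, 238, 178 and 292 RPKM in the TKO-labelled embryos. The groups did not overlap, and TKO 3 was the TKO-labelled embryo nearest to the Control range. The means were 145 ± 23.1 and 232 ± 47.5 RPKM (SD, n = 4 each), 1.60-fold higher in the TKO-labelled group. The log2 difference was 0.67 (95% confidence interval 0.30 to 1.03), with a limma p of 0.00209 before and 0.156 after adjustment, and an exact permutation p of 0.0286. Just 0.25% of the words of Tcp1 occur in another gene, but its exons overlap those of Acat3 by 571 bases and those of Mrpl18 by 141 bases, both on the opposite strand, and a small nucleolar RNA gene by 138 bases. Whether strand was used in counting is not given in the sources used here, so reads of these neighbours cannot be told apart from those of Tcp1. The neighbours themselves averaged 56.5 and 63.4 RPKM for Acat3 (log2 difference 0.16) and 299 and 312 RPKM for Mrpl18 (0.06), in Control and TKO-labelled embryos.

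Cct3, the gamma subunit, was listed at 348, 345, 290.3 and 288 RPKM in Control and at 399, 389, 352 and 416 RPKM in the TKO-labelled embryos. The lowest TKO-labelled value, that of TKO 3, was just above Control 1. Its log2 difference was 0.29 (95% confidence interval 0.05 to 0.54), with a limma p of 0.0218 before and 0.225 after adjustment.

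The other 6 subunits overlapped between groups. Cct5 averaged 466 and 548 RPKM (log2 difference 0.25), Cct4 322 and 394 RPKM (0.28), Cct7 284 and 323 RPKM (0.19), Cct2 461 and 513 RPKM (0.16), Cct6a 505 and 547 RPKM (0.11) and Cct8 495 and 527 RPKM (0.09), in Control and TKO-labelled embryos. Their limma adjusted p ran from 0.371 for Cct5 to 0.795 for Cct8. Cct4 spread widely within the TKO-labelled group, from 282 RPKM in TKO 1 to 505 RPKM in TKO 2.

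Tcp1 had the lowest level of the 8 subunits in every embryo. Relative to the mean of the other 7 it stood at 37.7%, 36.1%, 35.8% and 32.1% in Control replicates 1 to 4 and at 51.8%, 46.8%, 41.5% and 59.2% in TKO-labelled replicates 1 to 4. The 2 sets of values do not overlap, and this measure was chosen after Tcp1 had been seen to differ. The ratio of the highest to the lowest subunit was 3.36 to 4.28 in Control and 2.08 to 2.85 in the TKO-labelled embryos, and without Tcp1 it was 1.75 to 1.96 and 1.62 to 1.91. Cct6b, the testis form of the zeta subunit, did not exceed 0.542 RPKM, and Cct8l1 did not exceed 0.051 RPKM.

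**Figure D3:**
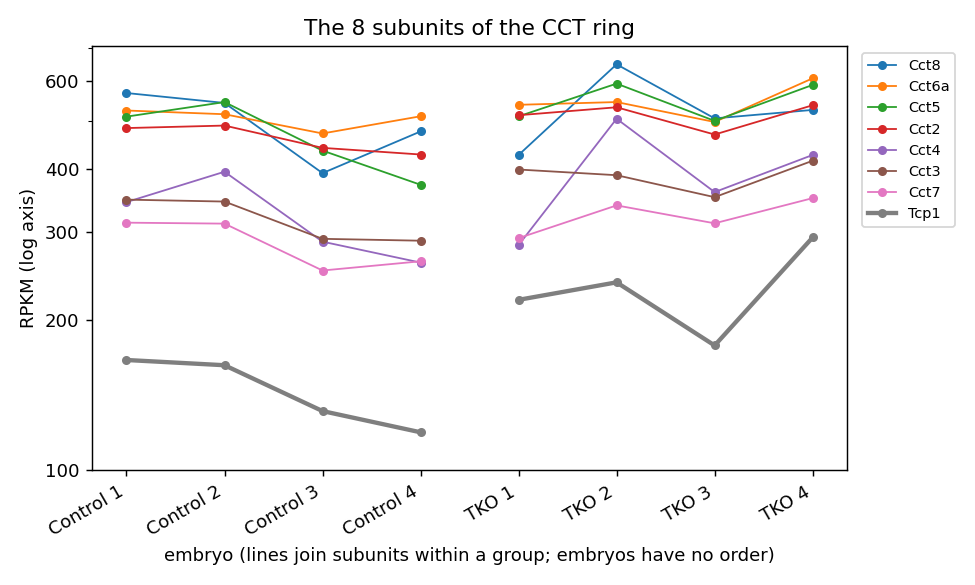
RPKM on a log axis of the 8 CCT subunits in each embryo, with lines joining the values of a subunit within a group. Tcp1, drawn thick, is the lowest line throughout and sits nearer to the others in the TKO-labelled embryos, at 41.5% to 59.2% of their mean against 32.1% to 37.7% in Control.

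DNAJA proteins are general J proteins that hand clients to HSP70, in the cytosol or, for Dnaja3, in mitochondria. Dnaja2 was listed at 100.5, 112, 99.6 and 105 RPKM in Control and at 114, 139, 119.6 and 138 RPKM in the TKO-labelled embryos. The groups did not overlap, although TKO 1 was barely above Control 2. The log2 difference was 0.29 (95% confidence interval 0.06 to 0.51), with a limma p of 0.0192 before and 0.219 after adjustment, and no word of its transcript occurs in another gene. Dnaja1, the class member with the highest mean, averaged 127 ± 14.3 and 147 ± 14.2 RPKM (SD, n = 4 each) with overlapping groups (log2 difference 0.21, limma adjusted p = 0.366). All 3 tested DNAJA genes had differences above 0, beside 6949 of all 10451 tested genes. Their median was 0.21, or 0.13 after median-ratio scaling, where Dnaja2 had a limma p of 0.0879. The exception by level was the untested Dnaja4, described with the small HSPs.

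DNAJB and DNAJC hold most of the specialised J proteins. The median difference of the 9 tested DNAJB genes was 0.02, which turned to -0.02 after median-ratio scaling and to -0.11 without Control replicate 2, with 5 above and 4 below 0. Dnajb6, a suppressor of protein aggregation and the class member with the highest mean, was level at 41.2 to 44.5 RPKM in Control and 40.7 to 48.4 RPKM in the TKO-labelled embryos. Of the 24 tested DNAJC genes, 15 were above and 9 below 0, with a median of 0.09, which was 0.0014 after median-ratio scaling and 0.018 without Control replicate 3.

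Dnajc17, a J protein with an RNA-binding domain, was listed at 10.02, 6.56, 4.85 and 10.2 RPKM in Control and at 11.5, 10.6, 9.77 and 11.6 RPKM in the TKO-labelled embryos. Control 2 and Control 3 were low, while Control 1 and Control 4 lay above TKO 3. Its log2 difference was 0.46 (95% confidence interval 0.03 to 0.90, limma adjusted p = 0.264). The other J proteins tied to RNA, ribosomes or chromatin were Dnajc8, Dnajc2, Dnajc9 and Dnajc21, and 4 of these 5 genes had differences above 0 with a median of 0.09. Dnajc8, a spliceosome component with the highest mean of its class, was listed at 147 to 200.5 RPKM in Control and 163 to 207 RPKM in the TKO-labelled embryos. Dnajc2 (zuotin), which sits on ribosomes, averaged 101 and 107 RPKM, and Dnajc9, a histone co-chaperone, 58.7 and 62.7 RPKM.

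Dnajc13, which acts on endosome coats with Hspa8, was listed at 7.44, 5.59, 5.21 and 5.40 RPKM in Control and at 6.90, 6.69, 8.02 and 10.4 RPKM in the TKO-labelled embryos. Control 1 lay above TKO 1 and TKO 2, and TKO 4 was the highest. Its log2 difference was 0.37 (95% confidence interval 0.03 to 0.72, limma adjusted p = 0.255). Dnajc7, which also binds HSP90, averaged 40.5 ± 7.31 and 50.3 ± 7.68 RPKM (SD, n = 4 each) with overlap (0.31, limma adjusted p = 0.323).

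**Figure D4:**
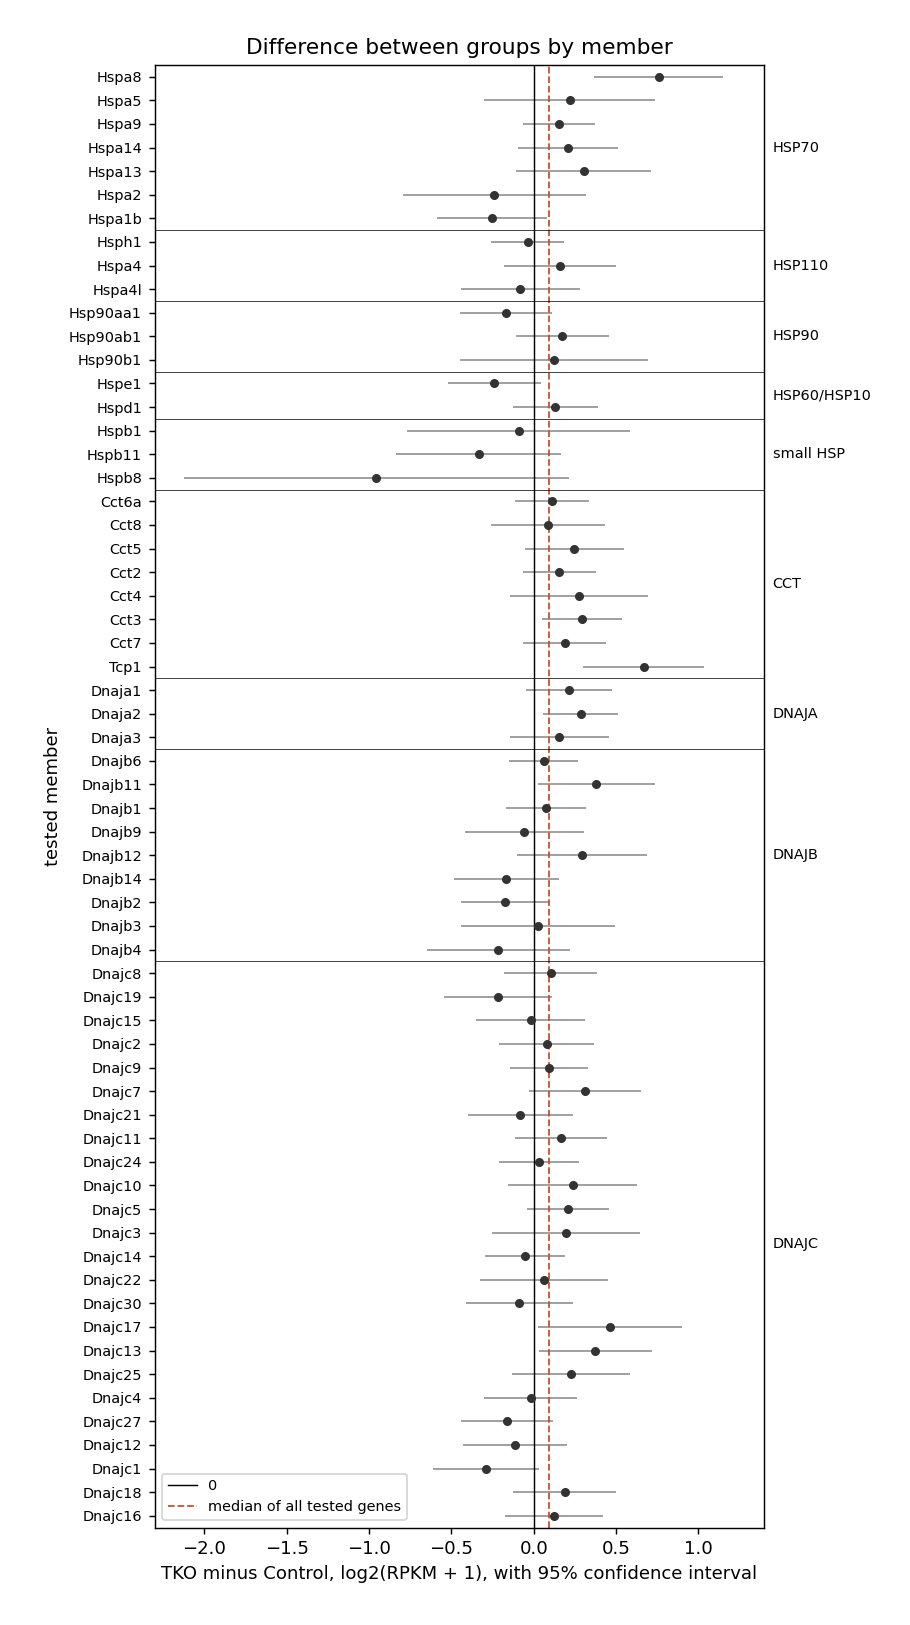
Log2 difference, TKO-labelled minus Control, of each tested chaperone with its 95% confidence interval from limma, grouped by class. The dashed line marks the median of all tested genes, 0.09. Hspa8, at 0.76, and Tcp1, at 0.67, lie farthest to the right, and Hspb8, at -0.96, farthest to the left with the widest interval.

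The chaperones of the endoplasmic reticulum fold secreted and membrane proteins, and their promoters are known for the ER stress response element, CCAAT and CCACG with 9 bases between them, which ATF6 and XBP1 act through together with NF-Y. This pattern was searched on both strands in the 250 bases before each gene's start, from RefSeq on build GRCm38.p6. A window was found for 67 of the 82 members. It was present in 3 of these 67 (4.48%), all of them ER chaperones, and in 0.13% of 27025 genes with a window. It was absent from the windows of the other 6 ER genes that have one. A second form, ATTGG and CCACG with 1 base between them, was in 0 members and in 0.037% of genes. The matches of these 3 genes are printed below. The 3 genes were high and low in mostly the same embryos, but this was not particular to them. Dnajb11 and Hspa13, which are not among the matches, ranked the embryos within each group as Dnajc3 did. Each printed stretch is 30 bases on the gene's strand, with the pattern in capitals, and a match is a description of the letters.
Hspa5, chr2:34772020-34772049, plus strand: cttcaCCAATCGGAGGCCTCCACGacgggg
Hsp90b1, chr10:86705632-86705661, minus strand: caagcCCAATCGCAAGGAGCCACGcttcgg
Hsp90b1, chr10:86705527-86705556, minus strand, pattern in reverse complement: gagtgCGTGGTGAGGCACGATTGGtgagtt
Dnajc3, chr14:118937822-118937851, plus strand: cacaaCCAATCAGCGCCAACCACGacccgg

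Hspa5 (BiP), the HSP70 of the ER lumen, was listed at 263, 249.9, 154 and 265 RPKM in Control and at 205, 390.2, 295 and 208 RPKM in the TKO-labelled embryos. Control 3 was far below the other Control embryos, TKO 2 was the highest of all, and TKO 1 and TKO 4 lay below 3 of the 4 Control embryos. Hsp90b1 (GRP94), the HSP90 of the ER, was listed at 464, 427, 231 and 483 RPKM in Control and at 329, 604, 465 and 337 RPKM in the TKO-labelled embryos, which is the same order of embryos within each group as for Hspa5. The ratio of Hspa5 to Hsp90b1 stayed between 0.548 and 0.669 in all 8 embryos. Neither gene differed between groups beyond the spread of embryos (log2 differences 0.22 with a 95% confidence interval of -0.30 to 0.74, and 0.12 with -0.45 to 0.70). For Hsp90b1 the sign turned without Control replicate 3, to -0.12.

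Dnajc3, which binds BiP and restrains the kinase PERK and its relatives, was listed at 16.6, 13.0, 11.2 and 15.0 RPKM in Control and at 10.8, 22.3, 18.6 and 14.4 RPKM in the TKO-labelled embryos. Here too TKO 2 was the highest and Control 3 the lowest Control embryo, and TKO 1 was the lowest of all. Dnajb11, a J protein of BiP that has none of the searched letters in its window, was listed at 35.2, 29.9, 22.1 and 34.9 RPKM in Control and at 33.7, 46.6, 42.0 and 36.5 RPKM in the TKO-labelled embryos. Its log2 difference was 0.38 (95% confidence interval 0.02 to 0.74), with a limma p of 0.0389 before and 0.261 after adjustment, and Control 1 and Control 4 lay above TKO 1.

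Over the list of 10 ER chaperones, 7 had differences above 0, 1 had a limma p under 0.05 (Dnajb11, at 0.091 after median-ratio scaling), and the median was 0.21. That median rested on single embryos, being 0.038 without TKO replicate 2 and 0.067 without Control replicate 3. TKO 2 was the highest embryo for 5 of the 10 and Control 3 the lowest for 4. The remaining ER genes were Dnajc10, a disulfide reductase with a J domain (17.5 and 21.1 RPKM), Hspa13, a microsomal HSP70 (3.77 and 4.98 RPKM), Dnajb9, a BiP partner induced by stress (6.05 and 5.70 RPKM), Dnajb12 (4.29 and 5.43 RPKM), Dnajb14 (2.88 and 2.45 RPKM) and Dnajc1 (2.85 and 2.15 RPKM), the last 3 being J proteins of the ER membrane, all given as Control and TKO-labelled means. Dnajc1 was higher in Control on average, with a log2 difference of -0.29 (limma p 0.0747, and 0.0361 after median-ratio scaling).

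Secretory cells are known for high levels of ER chaperones, and parietal endoderm, which lays down a thick basement membrane, is one such tissue. A list of 13 parietal endoderm markers summed to 264, 159, 216 and 315 RPKM in Control and to 265, 719, 939.8 and 611 RPKM in the TKO-labelled embryos. Of its 12 tested genes, 10 had a limma p under 0.05, all higher (lowest adjusted p 0.132), against 13.9% of all genes. After median-ratio scaling 10 of its genes did as well, beside 838 of all tested genes higher. Lama1, one of its defining markers, ran from 0.72 to 6.42 RPKM in Control and stood at 1.90, 24.5, 31.9 and 18.1 RPKM in the TKO-labelled embryos. A list of 10 visceral endoderm markers summed to 1289, 760.2, 387 and 515 RPKM in Control and to 873, 891, 989.8 and 793 RPKM in the TKO-labelled embryos. The marker sums and the chaperones matched in some embryos and parted in others. Control 3, lowest for Hspa5 and Hsp90b1, was also lowest in the visceral endoderm sum, and TKO 1, low for both genes, had the lowest parietal endoderm sum of its group. TKO 4 was about as low for both genes with a parietal endoderm sum of 611 RPKM, Control 2 had the lowest such sum of all with Hspa5 at 249.9 RPKM, and that sum peaked in TKO 3, not in TKO 2. The part of these tissues in the chaperone values was not tested.

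**Figure D5:**
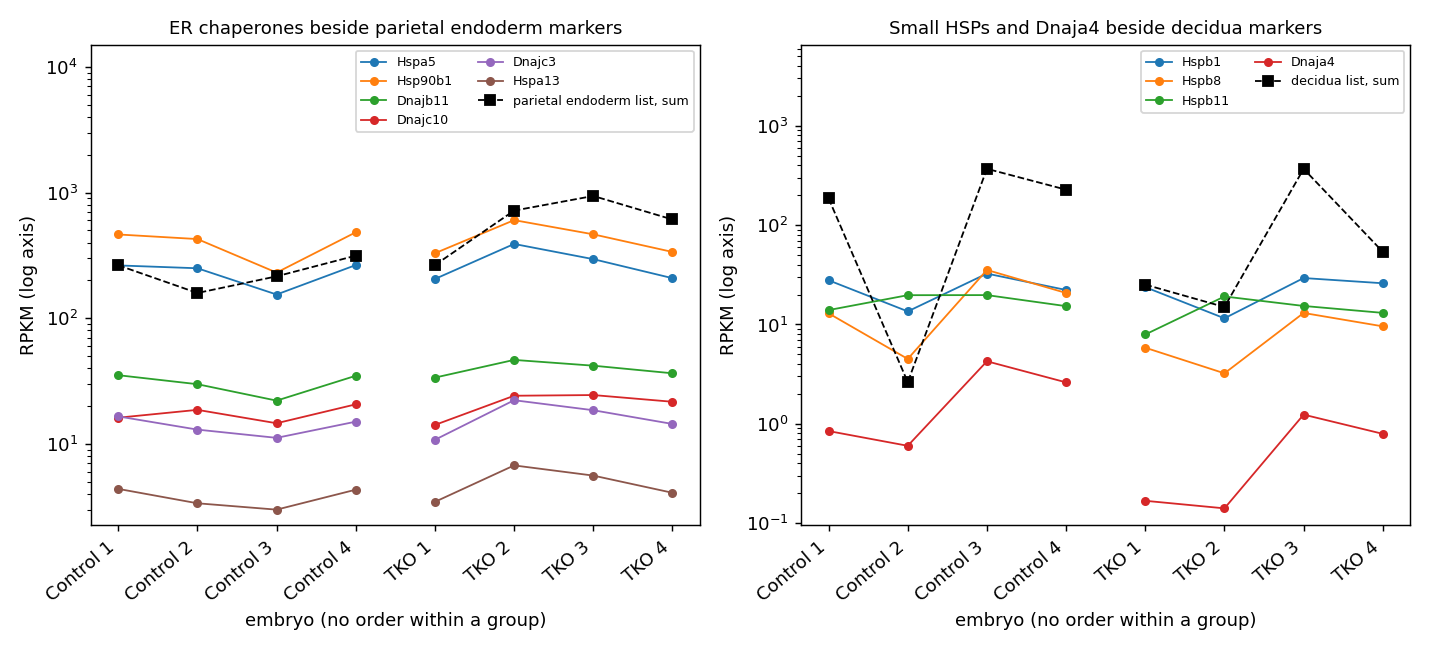
RPKM on a log axis per embryo of ER chaperones beside the summed parietal endoderm markers (left), and of small HSPs and Dnaja4 beside the summed decidua markers (right). Lines join embryos of a group, which have no order. On the left the ER genes peak in TKO 2, except Dnajc10, which is slightly higher in TKO 3. On the right Hspb8 and Dnaja4 are highest in Control 3, where the decidua sum is 369 RPKM. Both are lower in TKO 3, where that sum is 368 RPKM.

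Genes that HSF1 switches on under heat were examined as a list of 10. Their promoters are known for inverted repeats of GAA, the heat shock element, searched here as GAA, TTC and GAA (3 units) and as GAA and TTC (2 units, contained in the former), each with 2 bases between units, on both strands of the same windows. The 3-unit form was in 3 of the 67 members (4.48%) and in 0.514% of all genes, and the 2-unit form in 13 members (19.4%) and 7.73% of all genes. Of the 8 heat-inducible genes with a window, 6 (75.0%) held the 2-unit form. The stretches below show the genes that carry 3 units and the pair of inducible HSP70 genes. Hspd1 and Hspe1 lie head to head, and their 3-unit matches overlap in the stretch between them, read from opposite strands. Each has more than 1 such match there, of which 1 is printed, and the printed matches overlap without covering the same bases.
Hspe1, chr1:55088056-55088085, plus strand: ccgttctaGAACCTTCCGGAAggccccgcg
Hspd1, chr1:55088050-55088079, minus strand: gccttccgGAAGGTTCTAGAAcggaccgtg
Dnajb6, chr5:29735844-29735873, plus strand: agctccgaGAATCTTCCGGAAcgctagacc
Hspa1a, chr17:34972242-34972271, minus strand: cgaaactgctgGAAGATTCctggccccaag
Hspa1b, chr17:34959324-34959353, minus strand: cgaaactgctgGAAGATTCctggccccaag

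The strictly inducible HSP70 genes Hspa1a and Hspa1b, whose printed stretches are identical, were listed at low levels. Hspa1a was listed at 0.030 to 0.200 RPKM and Hspa1b at 0.515 to 1.399 RPKM over the 8 embryos, while the constitutive Hspa8 had 419 to 917 times their sum in Control and 1160 to 3020 times in the TKO-labelled embryos. Their listed sum did not exceed 1.53 RPKM. Because 62.3% of the words of Hspa1b occur in Hspa1a, their separate levels are uncertain. How shared reads were counted is not known, so their sum is uncertain too. The ratio to Hspa8 also rests on that counting, as 73.2% of the words of Hspa8 occur in other genes. Hspa1b reached the filter and had a log2 difference of -0.25 (limma adjusted p = 0.413). Dnajb1, the inducible J protein of the cytosol, was level at 14.1 to 16.5 RPKM in Control and 14.0 to 17.9 RPKM in the TKO-labelled embryos.

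Of the 9 tested heat-inducible genes, 4 had differences above 0 and 5 below, with a median of -0.04, and Hspa8 was the 1 gene with a limma p under 0.05. The sign of that median is not settled, since it was -0.12 after median-ratio scaling and ran from -0.085 to 0.059 over fits without 1 embryo, lowest without Control replicate 2 and highest without Control replicate 3. The heat shock factors overlapped between groups. Hsf1 averaged 12.53 and 13.1 RPKM and Hsf2 11.8 and 10.1 RPKM in Control and TKO-labelled embryos, 0 of the 3 tested genes of that list had a limma p under 0.05, and Hsf2 had the smallest, 0.192.

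Hspd1 (HSP60) and Hspe1 (HSP10) form the folding chamber of mitochondria and its lid. Hspe1 was listed at 1442, 1827, 1333 and 1529 RPKM in Control and at 1187, 1444, 1353 and 1195 RPKM in the TKO-labelled embryos. TKO 1 and TKO 4 lay below every Control embryo and the other embryos overlapped, which gave a log2 difference of -0.24 with a limma adjusted p of 0.359 (95% confidence interval -0.52 to 0.05). Hspd1 was listed at 605, 519, 445 and 571 RPKM in Control and at 554, 622, 559.98 and 596 RPKM in the TKO-labelled embryos (0.13, 95% confidence interval -0.13 to 0.39), with Control 3 the lowest. Hspe1 stood at 2.38 to 3.52 times Hspd1 in Control and at 2.01 to 2.42 times in the TKO-labelled embryos. Both genes share words with pseudogenes, 36.1% for Hspe1 and 44.8% for Hspd1, and their exons overlap each other by 112 bases on opposite strands.

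Over the list of 8 mitochondrial chaperones, 4 had differences above and 4 below 0, 0 had a limma p under 0.05, and the median was 0.06, or -0.03 after median-ratio scaling and -0.014 without Control replicate 3. Dnajc19, a J protein of the inner membrane import motor, averaged 143 ± 24.3 and 123 ± 17.4 RPKM (SD, n = 4 each, log2 difference -0.22, limma adjusted p = 0.47).

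Of the 8 small HSPs 3 were tested, with no value above 35.4 RPKM. Hspb8, which works with BAG3 in selective autophagy, was listed at 13.0, 4.5, 35.4 and 20.8 RPKM in Control and at 5.84, 3.22, 13.1 and 9.58 RPKM in the TKO-labelled embryos. Control 3 and Control 4 were above every TKO-labelled embryo and Control 2 was below 3 of them. Its log2 difference of -0.96 was the lowest of all members, with a 95% confidence interval from -2.12 to 0.21 (limma adjusted p = 0.371). With the replicate number as a block, its limma p was 0.000333 before and 0.106 after adjustment. Hspb1 (HSP25), an actin-binding small HSP with the highest mean of the class, was listed at 27.9, 13.5, 32.5 and 22.3 RPKM in Control and at 23.8, 11.5, 29.4 and 26.0 RPKM in the TKO-labelled embryos. Control 2 and TKO 2 were the lowest of their groups and Control 3 and TKO 3 the highest. Hspb11, an intraflagellar transport protein in spite of its symbol, averaged 17.2 and 13.9 RPKM (-0.33, limma adjusted p = 0.466), and all 3 tested small HSPs had differences below 0.

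Dnaja4, though untested, ranked the embryos within each group as Hspb8 did, at 0.846, 0.601, 4.26 and 2.61 RPKM in Control and 0.168, 0.141, 1.24 and 0.793 RPKM in the TKO-labelled embryos. Cryab, a small HSP of muscle, lens and uterus whose symbol lies outside the families by name, was listed at 56.1, 0.902, 129 and 87.7 RPKM in Control and at 17.6, 7.07, 54.4 and 30.2 RPKM in the TKO-labelled embryos. A list of 6 markers of maternal decidua summed to 186, 2.63, 369 and 227 RPKM in Control and to 25.2, 15.0, 368 and 53.9 RPKM in the TKO-labelled embryos, most of it from Prl8a2, a decidual prolactin. Its other genes did not all rank the embryos alike. Des, at 0.342 to 25.3 RPKM in Control and 0.524 to 9.24 RPKM in the TKO-labelled embryos, ranked them within each group as the sum did. Igfbp1 was lowest in Control 3, at 0.105 RPKM, and highest in TKO 2, at 2.08 RPKM, and Col1a1 was lower in TKO 3, at 0.279 RPKM, than in TKO 1 or TKO 4. Igfbp1, Col1a1 and Col3a1 did not exceed 2.27 RPKM. Control 2 and TKO 2 were the lowest of their groups, and Control 3 and TKO 3 the highest, for the decidua sum, Hspb8, Hspb1 and Cryab. The part of maternal tissue in these values was not tested.

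Chaperones known from other tissues were near 0. Of 11 known from male germ cells, 3 reached the filter (Hspa2, Hspa4l and Dnajb3), and the highest value of any of the 11 was 3.82 RPKM, for Hspa2 in Control 3. Of 4 small HSPs known from muscle, Hspb2, Hspb3, Hspb6 and Hspb7, 0 reached the filter and the highest value was 1.25 RPKM.

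The partners that steer the chaperones were read from lists of other genes, and 0 of these genes passed an adjusted p of 0.05. The counts below stand beside 6949 of 10451 tested genes with differences above 0, and 13.9% higher at a limma p under 0.05. Those after median-ratio scaling stand beside 838 of all tested genes higher at that p, fewer than the 1448 before it. Of 19 HSP90 co-chaperones, 4 had such a p, all higher in the TKO-labelled embryos, and 2 after median-ratio scaling, Cdc37 and Ppp5c. The list median was 0.10, next to the 0.09 of all genes. Cdc37, which brings kinases to HSP90, was listed at 30.9, 30.5, 25.6 and 27.9 RPKM in Control and at 46.4, 33.7, 38.7 and 56.2 RPKM in the TKO-labelled embryos, with no overlap (log2 difference 0.57, limma p 0.00355 before and 0.160 after adjustment). The other 3 were Ppp5c, an HSP90-bound phosphatase (18.2 and 27.6 RPKM), Ahsa1, an activator of its ATPase (186 and 232 RPKM), and Stip1 (HOP), which links HSP70 to HSP90 (113 and 142 RPKM), given as Control and TKO-labelled means. Of 10 tested cofactors of HSP70, all had differences above 0 with a median of 0.20, or 0.12 after median-ratio scaling. At a limma p under 0.05 there were 4, and 1 after scaling, Grpel1. The 4 were Grpel1, the exchange factor of mitochondrial HSP70 (44.9 and 64.6 RPKM), Bag1 (74.3 and 90.1 RPKM) and Bag2 (15.7 and 21.0 RPKM), exchange factors of the BAG family, and St13 (HIP), which stabilises HSP70 in its ADP form (61.0 and 75.4 RPKM).

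Partners in the ER and mitochondria were read the same way. Of 19 tested ER folding factors and sensors, 17 had differences above 0 and the median was 0.25, or 0.17 after median-ratio scaling. Control 3 was the lowest embryo for 12 of the 19, against 2299 of all 10451 tested genes. TKO 3 was the highest for 10, against 1066 of all tested genes. At a limma p under 0.05 there were 5, and 3 after scaling, Pdia3, Xbp1 and P4hb. Pdia3, a disulfide isomerase for glycoproteins, was listed at 108, 85.9, 44.6 and 93.2 RPKM in Control and at 142, 143, 109.6 and 126 RPKM in the TKO-labelled embryos, with no overlap and Control 3 again the lowest (log2 difference 0.71, limma adjusted p = 0.198). The other 4 were Xbp1, the transcription factor of the unfolded protein response (27.9 and 43.6 RPKM), P4hb, the main disulfide isomerase (138 and 191 RPKM), Hyou1, an ER HSP110 (3.89 and 5.58 RPKM), and Sdf2l1 (16.3 and 22.2 RPKM). Of 9 mitochondrial folding and protease genes, 3 had a limma p under 0.05, with a median of 0.23. After median-ratio scaling 1 did, Trap1, with a median of 0.14. The 3 were Trap1, the HSP90 of mitochondria (35.5 and 46.2 RPKM), Timm44, which tethers mitochondrial HSP70 to the import channel (30.3 and 39.1 RPKM), and Clpx (13.8 and 16.5 RPKM). Of 8 tested prefoldin subunits and CCT cofactors, 0 had a limma p under 0.05, the median was 0.06, and Pfdn2 had the smallest p, 0.086, with 210.3 and 170.4 RPKM in Control and TKO-labelled embryos.

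Single embryos recur at the ends of the ranges across classes. Control 3 was the lowest embryo for 26 of the 62 tested members, among them all 3 HSP90 genes, 4 of the 7 HSP70 genes and 11 of the 24 DNAJC genes, and it had the lowest summed RPKM of members, 10130 against 11700 to 13640 in the other 7. TKO 2 was the highest embryo for 15 members and TKO 4 for 14. Over all 10451 tested genes Control 3 was the lowest for 2299, TKO 2 the highest for 1325 and TKO 4 the highest for 2477. The median coefficient of variation of the members was 16.3% in Control and 14.3% in the TKO-labelled embryos, beside 14.8% and 16.5% for all tested genes.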

How the data were processed

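Single-embryo RNA was converted with a SMARTer ultra-low RNA kit and Nextera XT and sequenced on Illumina HiSeq, as the labels' protocols say. The deposited table gives RPKM per gene symbol and embryo, computed by the authors. Per the submitters' processing notes, HTSeq and build mm9 were used. Which aligner, annotation, read total and strand setting were used is not given in the sources used here. The reference used here is GENCODE M21 and RefSeq on GRCm38.p6, so coordinates are of that build. Depth was estimated from the step size of low values between 9.89 and 18.96 M reads (M for 1000000). At that total 30.8% to 38.0% of low values came out at 1 to 3 whole reads within 2%, so no reads could be recovered and a count test was not made.

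Groups come from the sample labels. The group difference was fitted on log2(RPKM + 1) by limma 3.58.1 (R 4.3.3) with a variance trend, on genes with at least 1 RPKM in at least 4 of 8 embryos, with two-sided p adjusted by Benjamini-Hochberg over 10451 genes, and by exact permutation over 70 assignments. The log scale understates changes of low genes. The limma p sets the group difference against the spread between these embryos, and the permutation p ranks the labelled split among the assignments. Neither accounts for litter, sex or tissue make-up. The pipeline was tested on simulated data. Alternatives were pseudocounts of 0.1 and 0.5, no filter, a filter of 5 RPKM, median-ratio scaling, no trend, a replicate block and leaving out each embryo.

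Members and lists were chosen with earlier results of these data known. Named with values are members at an unadjusted p under 0.05, the highest member of each class, the heat-inducible and ER lists, the CCT subunits, Tet1, Tet2 and Tet3, and of each list of other genes those at p under 0.05 or with the smallest p. Hsp90ab1, Hspa9, Hspa4, Hspa14, Hspa2, Hspb8, Hspb11, Dnajc7, Dnajc2, Dnajc9, Dnajc19, Dnaja4, Cct6b, Cct8l1, Cryab, Acat3, Mrpl18, Hsf1, Lama1 and Prl8a2 were named after their values were seen. Bag6, Pfdn6 and 1 extraembryonic ectoderm marker were not analysed here.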

Additional observations from a re-analysis of the deposited data

Results flagged for a closer look

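In 3 of 86 groups of 4 embryos, over the 43 named chaperones, 1 embryo stood apart from the other 3 by Dixon's test at the 95% level. Chance alone marks about 1 group in 20. Hsp90aa1 in TKO 2 stood above the other TKO-labelled embryos, at 2096 RPKM against 1738 to 1751 RPKM. Hspa5 in Control 3 stood below the other Control embryos, at 154 RPKM against 249.9 to 265 RPKM. Dnajc2 in TKO 3 stood below the other TKO-labelled embryos, at 88.1 RPKM against 111.6 to 114 RPKM.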

How the results depend on the processing

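The count of members past an adjusted p of 0.05 was 0 under all 15 alternatives, with the lowest adjusted p of a member between 0.106 and 0.383 (limma). Without TKO replicate 1, 36 genes passed over the whole table and 0 of them were members. Median-ratio scaling gave 2 members higher and 2 lower at p under 0.05 (lower: Hspe1 and Dnajc1), and a member median log2 difference of 0.022, beside 0.021 for all genes. Leaving out 1 embryo gave 3 to 10 members higher, 0 to 2 lower, and 4 to 9 without overlap. With the replicate number as a block, 6 members were higher and 2 lower (Hspb8 and Hspb11), and 0 passed the adjusted threshold. Same-numbered embryos had correlations of -0.0045, 0.40, 0.26 and -0.021 between their deviations from the group means. Correlations of differently numbered embryos ran from -0.46 to 0.196, so the 0.40 and 0.26 of replicates 2 and 3 were above all of them. Litter is not labelled, so whether the numbers pair the embryos is not known. Since 0 members passed the adjusted threshold in any fit, direction alone could change. The fit without trend and the replicate block cannot change it, because both leave the log2 difference as it is. Of 622 results for 42 named members, these fits included, 609 kept their direction and 13, in 8 genes, turned. Under median-ratio scaling the log2 difference became -0.024 for Dnajb6, -0.0065 for Dnajb1 and -0.0051 for Dnajc2. Over fits without 1 embryo it ran from -0.085 to 0.0072 for Hsph1, -0.33 to 0.19 for Hspb1, -0.12 to 0.24 for Hsp90b1, -0.19 to 0.047 for Dnajb9, -0.018 to 0.18 for Cct8 and -0.013 to 0.17 for Dnajc2. The cause was not tested. Without counts, counting error of low members is unknown.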
